A study of Homo sapiens with 4 samples.

Results

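The red cell membrane skeleton is described here through 9 genes, taken by name from a deposited expression table of 28412 genes. Of these, 6 encode the forms characteristic of red cells and are called erythroid isoform genes below: SPTB, ANK1, EPB42, DMTN, ADD2 and TMOD1. The other 3, SPTAN1, SPTBN1 and EPB41, are transcribed in most tissues. EPB41 was placed among the widely expressed genes because its red cell forms arise by splicing, which a table with 1 value per gene cannot separate. All 9 genes were found in the table.

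The skeleton is a protein mesh on the inner face of the red cell membrane. Its strands are pairs of alpha and beta spectrin, whose ends meet at short actin filaments held by protein 4.1, adducin, dematin and tropomodulin. Ankyrin and protein 4.2 tie the mesh to band 3, the anion exchanger of the membrane. Inherited defects of spectrin, ankyrin or protein 4.2 cause hereditary spherocytosis. Most other cells build a related mesh from other genes of the same families.

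To investigate what LDB1 loss does to transcript levels, the study sequenced RNA from cells labelled NB4, a human promyelocytic leukemia line. LDB1 is the adaptor protein of a transcription complex with LMO2, TAL1 and GATA factors. There were 2 libraries from cells with the control vector sh-NC and 2 from cells with an shRNA vector against LDB1 (sh-LDB1). Both vectors were lentiviral, and infected cells were selected with puromycin. The labels call the sh-NC cells untreated controls and the sh-LDB1 cells an LDB1 knockdown. The study designed 3 shRNAs against LDB1, and the sources used here do not say which one was sequenced.

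Levels are given as FPKM, fragments per kilobase of gene scaled by a divisor for each library. Levels of different genes are set side by side below, but 1 length per gene stands for all its transcripts. For EPB41, with 40 annotated transcripts, that length was 19993 bases. Orders, ratios and shares across genes therefore depend on these lengths, and which transcripts were made was not tested. That divisor, worked out from the values, ranged from 14746656 to 16182674 reads per library. The reads recovered from the FPKM summed to more than the divisor in every library. They were 18794339 and 17237855 with sh-NC and 17132758 and 16095608 with sh-LDB1. The cause of this difference was not tested. LDB1 itself was at 135.1 and 120.1 FPKM with sh-NC, against 10.2 and 9.47 FPKM with sh-LDB1. The labelled cell type was set against marker lists. All 8 erythroid markers tested (globins, ALAS2, KLF1 and GATA1) were lower past the thresholds given below, and their summed level was 3903 and 4056 FPKM with sh-NC against 376.3 and 340.1 FPKM with sh-LDB1. Of 9 granulocytic markers, 7 were analysed here, with a summed level of only 12.6 and 11.7 FPKM with sh-NC and 41.4 and 37.9 FPKM with sh-LDB1. Of the 6 that were tested, 3 were higher past the same thresholds, CSF3R at a log2 fold change of 2.25, LYZ at 1.59 and PRTN3 at 1.42. AZU1 (0.94), CD33 (0.32) and CEBPE (-0.58) were not called, and CEBPE went in the lower direction. Over all tested genes, 10.3% were lower and 9.5% higher past these thresholds. ELANE, the neutrophil elastase gene of the same list, was listed at 0 in 3 of the 4 libraries, and the first sh-LDB1 library held 0.182 FPKM of it. Thus the control libraries carried abundant erythroid transcripts, and the granulocytic markers of the labelled cell type were low or listed at 0. The study also reported a short tandem repeat profile of an NB4 sample that matched the reference line. Whether the sequenced cells came from that sample is not stated in the sources used here. Megakaryocytic, monocytic and lymphoid markers summed to between 0.196 and 4.38 FPKM in every library, and none of the 3 that could be tested was called. The part of these markers in the results below was not tested.

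Results showed that the erythroid isoform genes were lower in the sh-LDB1 libraries, whereas the widely expressed genes went in different directions. A gene was called when its adjusted p (limma, Benjamini-Hochberg over 13300 genes) was below 0.05 and its level changed more than 2-fold on the log2(FPKM + 1) scale. Of the 9 genes, 8 had a mean of at least 1 FPKM and were tested. Called lower were 5 genes, SPTB, TMOD1, DMTN, ADD2 and ANK1, against a background of 10.3% of all tested genes. Called higher was 1 gene, SPTAN1, against a background of 9.5%. The members were chosen with earlier results of these data known, so this is not an independent comparison. EPB41 and SPTBN1 were not called, and EPB42 was too low to be tested. The median log2 fold change was -2.34 over the 5 tested erythroid isoform genes and -0.13 over the 3 widely expressed genes. These medians are the values of DMTN and of SPTBN1. The widely expressed genes ranged from -0.62 to 1.93, so their median does not stand for a shared change. Over all 13300 tested genes the median was -0.08. In bulk RNA, fewer cells of an erythroid kind and less RNA per cell cannot be told apart. The groups did not overlap for any of the 8 tested members, but the same held for 84.6% of all tested genes, so with 2 libraries per group this says little about a single gene.

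The 9 genes also changed places in order of level. In sh-NC the order from the highest mean FPKM was ANK1, DMTN, TMOD1, ADD2, SPTB, EPB41, SPTBN1, SPTAN1 and EPB42, and no neighbours in it overlapped. In sh-LDB1 it was SPTAN1, ANK1, EPB41, SPTBN1, ADD2, DMTN, TMOD1, SPTB and EPB42. There, only ADD2 and DMTN overlapped. SPTAN1 thus moved from the next to last place to the first.

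**Figure D1:**
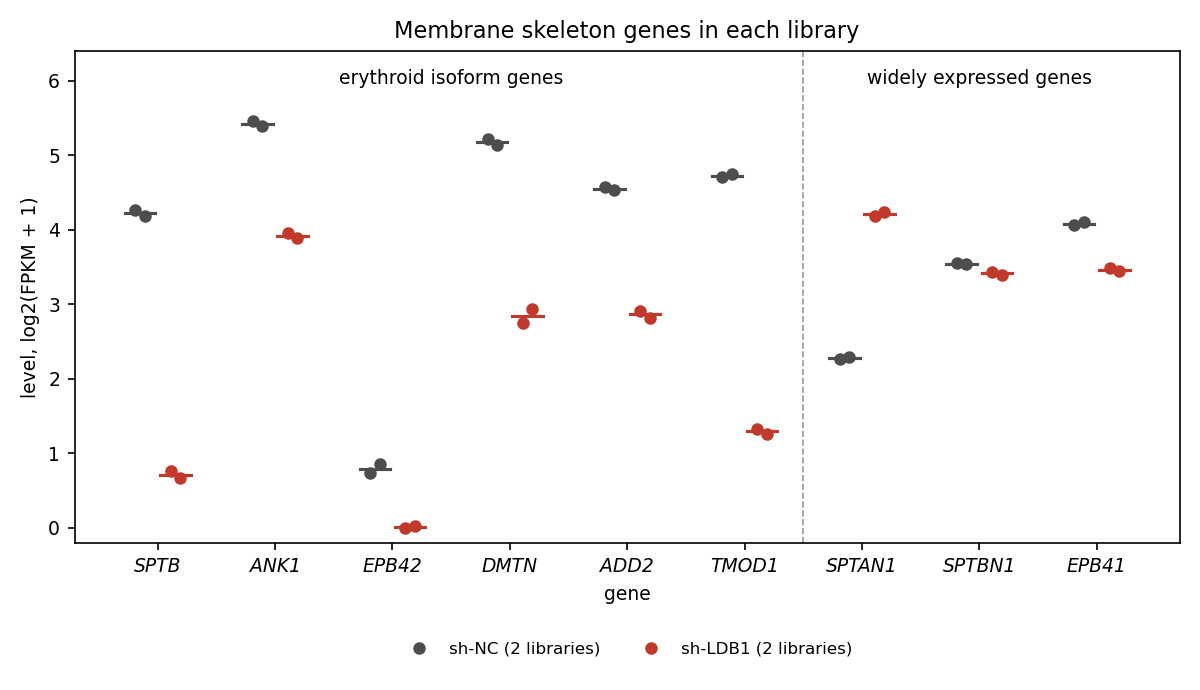
Level of the 9 membrane skeleton genes in each library, as log2(FPKM + 1), with each point a library and each bar the mean of 2 libraries. The 6 erythroid isoform genes on the left sit lower with sh-LDB1, from ANK1 (14.1 FPKM) down to EPB42 (0.0109 FPKM), while SPTAN1 on the right sits higher (17.4 FPKM).

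The DNA just before the transcription start was read for the members that have an entry in the RefSeq promoter table (GRCh38.p14). These were 7 of the 9 genes, with 12 annotated starts. ANK1 and DMTN were not among them. The 250 bases before the first start are shown for the spectrin genes and for EPB42, because among the tested members the spectrins hold both the largest log2 fall and the rise, and EPB42 was the lowest member in both groups. Capitals mark GATA motifs, the letters NGATAN with A or T first and A or G last, on either strand, which are the letters that GATA factors of the LDB1 complex are known to bind. The positions are chr14:64879908-64880157 (minus strand) for SPTB, chr15:43221019-43221268 (minus strand) for EPB42, chr9:128552337-128552586 (plus strand) for SPTAN1 and chr2:54456077-54456326 (plus strand) for SPTBN1.
SPTB: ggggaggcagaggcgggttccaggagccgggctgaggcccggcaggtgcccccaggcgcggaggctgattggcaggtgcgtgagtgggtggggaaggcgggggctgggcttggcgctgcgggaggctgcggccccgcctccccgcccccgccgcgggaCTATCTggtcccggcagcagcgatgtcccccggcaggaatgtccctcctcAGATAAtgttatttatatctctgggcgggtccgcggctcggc
EPB42: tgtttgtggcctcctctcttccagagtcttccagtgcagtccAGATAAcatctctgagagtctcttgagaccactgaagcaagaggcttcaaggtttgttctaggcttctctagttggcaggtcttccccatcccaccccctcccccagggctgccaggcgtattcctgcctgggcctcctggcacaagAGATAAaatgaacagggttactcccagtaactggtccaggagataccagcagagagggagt
SPTAN1: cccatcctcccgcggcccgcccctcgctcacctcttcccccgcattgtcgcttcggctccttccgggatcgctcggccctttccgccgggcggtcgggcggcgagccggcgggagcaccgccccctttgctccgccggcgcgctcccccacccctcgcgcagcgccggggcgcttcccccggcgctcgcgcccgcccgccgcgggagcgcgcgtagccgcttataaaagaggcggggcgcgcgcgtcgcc
SPTBN1: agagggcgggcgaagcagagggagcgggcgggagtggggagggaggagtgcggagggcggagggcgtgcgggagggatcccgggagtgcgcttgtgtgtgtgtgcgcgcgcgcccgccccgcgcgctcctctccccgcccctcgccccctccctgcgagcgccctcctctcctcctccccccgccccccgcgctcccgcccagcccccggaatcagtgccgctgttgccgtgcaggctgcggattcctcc

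The SPTB window held 2 GATA motifs, beginning at -92 and -42 counted from the start, the first of them on the opposite strand. The EPB42 window also held 2, beginning at -208 and -61. The SPTAN1 window and the first SPTBN1 window held 0. Of all 35116 promoters in the table, 22.3% held at least 1 such motif in these 250 bases and 4.96% held at least 2. The second start of SPTB, the first start of ADD2, the second start of EPB41 and both starts of TMOD1 held 0. The second starts of SPTBN1 and ADD2 and the first start of EPB41 held 1 each. The E-box CANNTG, searched because TAL1 is known to bind it, occurred at least 1 time in 61.8% of all promoters. Among the members it was found before both SPTB starts, the second starts of ADD2 and SPTBN1, and the first starts of TMOD1 and EPB41. It was found 3 times at most, before the second SPTB start and the first EPB41 start. The other starts, those of EPB42 and SPTAN1 among them, held 0. The share of G or C in the windows ranged from 30.4% at the first TMOD1 start to 83.2% at the second, so it did not separate erythroid isoform genes from widely expressed ones. Motif matches describe the letters only.

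SPTB encodes beta spectrin of red cells, the partner of alpha spectrin in each strand. The gene lies on chromosome 14 at 64746283-64879907, minus strand (hg38 with GENCODE release 44, as for all genes below), with 36 exons in its canonical transcript. SPTB was at 18.2 and 17.1 FPKM with sh-NC, against 0.692 and 0.585 FPKM with sh-LDB1. Both sh-LDB1 values lay far under both controls. In reads recovered from the FPKM, these were 4348 and 3733 against 164 and 131, so the low values still rested on more than 100 reads. The mean fell from 17.6 ± 0.743 to 0.638 ± 0.0755 FPKM (SD, n = 2 per group), to 3.62% of the control. The log2 fold change was -3.51 ± 0.0735 (SE), with a 95% interval from -3.70 to -3.31 and an adjusted p of 6.93e-05 (limma, Benjamini-Hochberg). It ranked 9 among the falls of all 13300 tested genes. SPTB reached the mean of 1 FPKM required for the test only through the sh-NC libraries. When every library needed at least 1 FPKM, it was not tested. Since 1 was added to each FPKM before the log, the log2 fold change of -3.51 understates the ratio of the means, 27.6-fold.

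SPTBN1 encodes the beta spectrin found under the membrane of most cells. SPTBN1 maps to chromosome 2 at 54456317-54671446, plus strand, with 36 exons. Its levels were 10.7 and 10.6 FPKM with sh-NC and 9.84 and 9.45 FPKM with sh-LDB1. The sh-LDB1 values were slightly under the controls without overlap. The log2 fold change was -0.13 ± 0.0507 (SE), with a 95% interval from -0.27 to 0.01 and an adjusted p of 0.0801 (limma, Benjamini-Hochberg), which did not pass. It turned to 0.03 when the libraries were scaled to the same summed FPKM, so no direction is given for SPTBN1. In sh-NC, SPTB had been the higher of the pair, with 1.70 and 1.61 times the FPKM of SPTBN1. In sh-LDB1, SPTBN1 had 14.2 and 16.2 times the FPKM of SPTB.

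SPTAN1 encodes the non-erythroid alpha spectrin, also called alpha-II spectrin or fodrin. Its locus is on chromosome 9 at 128552558-128633662, plus strand, with 57 exons. SPTAN1 was at 3.81 and 3.88 FPKM with sh-NC, against 17.1 and 17.8 FPKM with sh-LDB1. Both sh-LDB1 libraries were far above both controls, the reverse of the erythroid isoform genes. The mean rose 4.54-fold, from 3.84 ± 0.0441 to 17.4 ± 0.475 FPKM (SD, n = 2). On the log2 scale the change was 1.93 ± 0.0529 (SE), with a 95% interval from 1.79 to 2.07 and an adjusted p of 8.31e-05 (limma, Benjamini-Hochberg). WDR34, which overlaps the SPTAN1 locus on the opposite strand, went from 44.8 to 30.9 FPKM. Whether the counting used strand is not given in the sources used here, so reads in a stretch shared by both genes could not be assigned.

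ANK1 encodes the ankyrin of red cells, which ties beta spectrin to band 3. The gene maps to chromosome 8 at 41653220-41896741, minus strand, with 43 exons. ANK1 was the most abundant of the 9 genes in the controls, at 42.9 and 40.9 FPKM, and was at 14.5 and 13.8 FPKM with sh-LDB1. The sh-LDB1 values were well under the controls, but ANK1 held the second place among the members. Its mean fell to 33.7% of the control, with a log2 fold change of -1.50 ± 0.0516 (SE) and an adjusted p of 0.000111 (limma, Benjamini-Hochberg). The ratio of ANK1 to SPTB, its binding partner, went from 2.36 and 2.39 with sh-NC to 20.9 and 23.5 with sh-LDB1. RF00019, a short RNA gene on the opposite strand of the ANK1 locus, was at 11.1 FPKM with sh-NC, against 1.58 FPKM with sh-LDB1.

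EPB42 encodes protein 4.2, which stabilises the contact of ankyrin with band 3. The EPB42 locus is on chromosome 15 at 43197227-43221018, minus strand, with 13 exons. Its levels were 0.671 and 0.803 FPKM with sh-NC, and it was listed at 0 and at 0.0217 FPKM with sh-LDB1. Both controls were above both sh-LDB1 libraries. The recovered reads were 33 and 36 with sh-NC and 0 and 1 with sh-LDB1. The summed reads of 69 and 1, scaled by the FPKM divisors, put sh-LDB1 at 1.44% of the control. The exact 95% interval, from 0.0359% to 8.29%, covers counting error only. The gene stayed under the mean of 1 FPKM required for the test. With no filter on low values, its log2 fold change was -0.78 ± 0.0790 (SE), with an adjusted p of 0.00641 over 28412 genes (limma, Benjamini-Hochberg). On that scale the added 1 exceeds the level itself.

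DMTN encodes dematin, which bundles actin filaments and links the junctions to the membrane. DMTN maps to chromosome 8 at 22048995-22082527, plus strand, with 16 exons. DMTN was at 36.1 and 34.1 FPKM with sh-NC, against 5.69 and 6.62 FPKM with sh-LDB1. Both sh-LDB1 values were under both controls. Its mean fell to 17.5% of the control, with a log2 fold change of -2.34 ± 0.0813 (SE) and an adjusted p of 0.000113 (limma, Benjamini-Hochberg).

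ADD2 encodes beta adducin, which caps actin filaments and recruits spectrin to them. Its position is chromosome 2, 70607618-70768225, minus strand, with 16 exons. ADD2 was at 22.7 and 22.2 FPKM with sh-NC, against 6.53 and 6.06 FPKM with sh-LDB1. The replicates were close in both groups, and the groups were far apart. Its mean fell to 28.0% of the control, with a log2 fold change of -1.69 ± 0.0560 (SE) and an adjusted p of 0.000106 (limma, Benjamini-Hochberg).

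TMOD1 encodes tropomodulin 1, which caps the slow-growing end of the actin filaments and so sets their length. TMOD1 sits on chromosome 9 at 97501180-97601743, plus strand, with 10 exons. TMOD1 was at 25.0 and 25.8 FPKM with sh-NC, against 1.51 and 1.39 FPKM with sh-LDB1. The sh-LDB1 values were low in both libraries, resting on 90 and 78 recovered reads against 1503 and 1409. Its mean fell 17.5-fold, to 5.72% of the control, with a log2 fold change of -3.43 ± 0.0590 (SE) and an adjusted p of 6.77e-05 (limma, Benjamini-Hochberg). TSTD2, which overlaps TMOD1 on the opposite strand, was at 4.05 FPKM with sh-NC and 3.63 FPKM with sh-LDB1.

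EPB41 encodes protein 4.1, which strengthens the binding of spectrin to actin and is made in many splice forms. It is found on chromosome 1 at 28887091-29120046, plus strand, and the annotation lists 40 transcripts. EPB41 was at 15.7 and 16.2 FPKM with sh-NC, against 10.2 and 9.92 FPKM with sh-LDB1. The sh-LDB1 values were under the controls by more than the spread between replicates. Its mean was 63.0% of the control, with a log2 fold change of -0.62 ± 0.0487 (SE) and an adjusted p of 0.000612 (limma, Benjamini-Hochberg). That passed the p threshold, as did 37.4% of all tested genes in the lower direction, but not the 2-fold threshold. The intervals of the 5 called erythroid isoform genes all lay below that of EPB41, whose lower bound was -0.75.

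**Figure D2:**
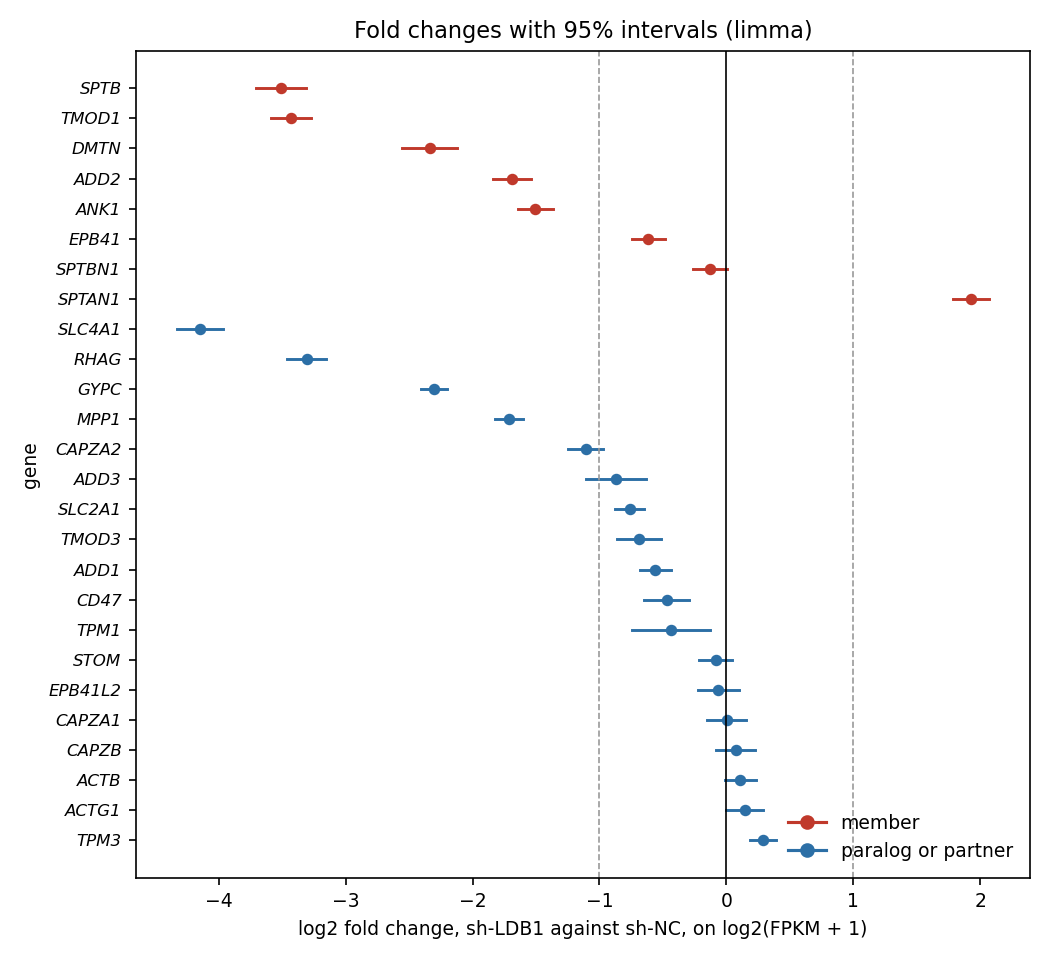
Log2 fold change, sh-LDB1 against sh-NC, of the 8 tested membrane skeleton genes (red) and 18 tested family paralogs and binding partners (blue). The scale is log2(FPKM + 1), with bars for the 95% interval from limma. Among the members, SPTB (-3.51) and TMOD1 (-3.43) lie farthest to the lower side, and the partner SLC4A1 (-4.15) lies lower still. SPTBN1 (-0.13) has an interval that includes 0, and SPTAN1 (1.93) is the only member on the higher side.

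**Figure D3:**
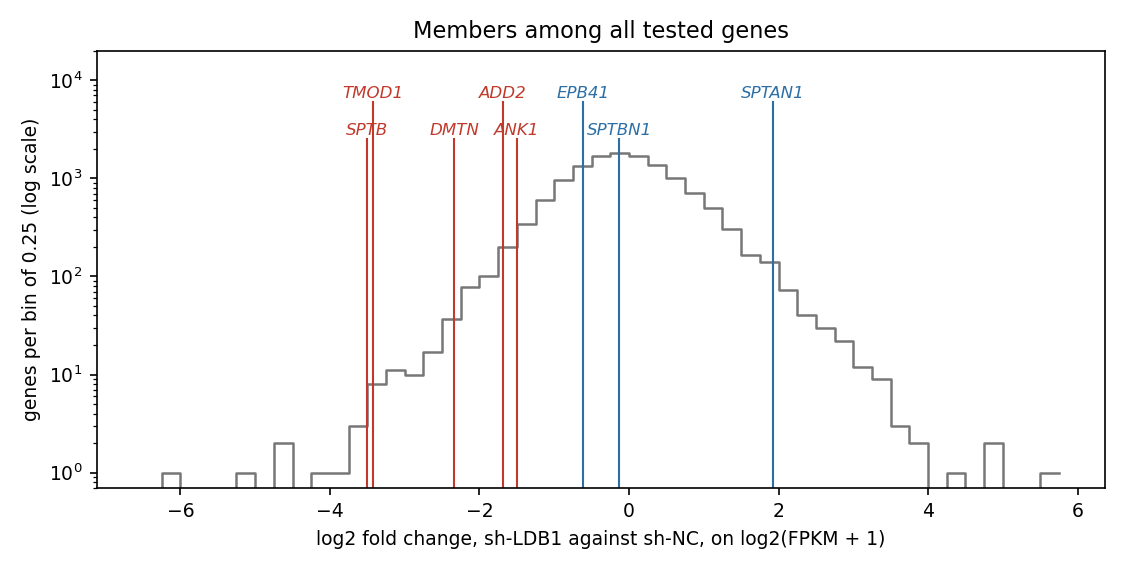
Distribution of the log2 fold changes of all 13300 tested genes, counted in bins of 0.25 on a logarithmic axis, with vertical lines at the 8 tested members. The erythroid isoform genes from ANK1 (-1.50) to SPTB (-3.51) fall in the lower tail, and SPTAN1 (1.93) falls in the upper tail.

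The spectrin members were set side by side first. SPTAN1 had 0.357 and 0.366 times the FPKM of SPTBN1 with sh-NC, against 1.74 and 1.88 times with sh-LDB1. SPTBN1 went from the higher to the lower of these widely expressed partners, while its own level differed little. The ratio of SPTB to SPTBN1 was 0.0703 and 0.0619 in the sh-LDB1 libraries.

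To compare the genes within the other families, the share of each gene in the summed FPKM of its family was computed in every library. These are shares of RNA level, and no protein was measured here. Of the 4 families shown, the tropomodulins shifted the most. TMOD1 held 76.8% and 77.5% of tropomodulin FPKM with sh-NC and 26.1% and 25.6% with sh-LDB1. TMOD3, the widely expressed tropomodulin, held 20.8% ± 0.0786 and then 69.0% ± 0.201. The level of TMOD3 itself was lower with sh-LDB1, at 4.02 and 3.74 FPKM against 6.75 and 6.93 FPKM, with a log2 fold change of -0.69 that did not pass the fold threshold. Its larger share therefore came with a smaller amount, and the family total was 17.1% of the control.

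The adducins and the protein 4.1 family shifted less. ADD2 held 39.9% and 37.3% of adducin FPKM with sh-NC and 23.4% and 22.3% with sh-LDB1, while ADD1 went from 33.2% ± 0.475 to 46.4% ± 1.12. EPB41 held 51.2% and 50.5% of its family with sh-NC and 38.4% and 38.9% with sh-LDB1, and EPB41L2 held 48.3% ± 0.537 and then 55.7% ± 1.16. EPB41L1, too low to be tested, was at 0.249 and 0.238 FPKM with sh-NC, against 1.35 and 1.58 FPKM with sh-LDB1, and its share was 0.779% ± 0.0493 and then 5.67% ± 0.783. The level of EPB41L2 overlapped between the groups, with a log2 fold change of -0.06 and an adjusted p of 0.404 (limma, Benjamini-Hochberg). EPB41L3 and TMOD4 were not analysed here. ANK1 held nearly all ankyrin FPKM in both groups, at 99.9% ± 0.0115 with sh-NC and 99.1% ± 0.0396 with sh-LDB1, and the other ankyrins were near 0. ANK3, the larger of these, was at 0.0314 and 0.0291 FPKM with sh-NC, against 0.132 and 0.124 FPKM with sh-LDB1, and was too low to be tested.

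**Figure D4:**
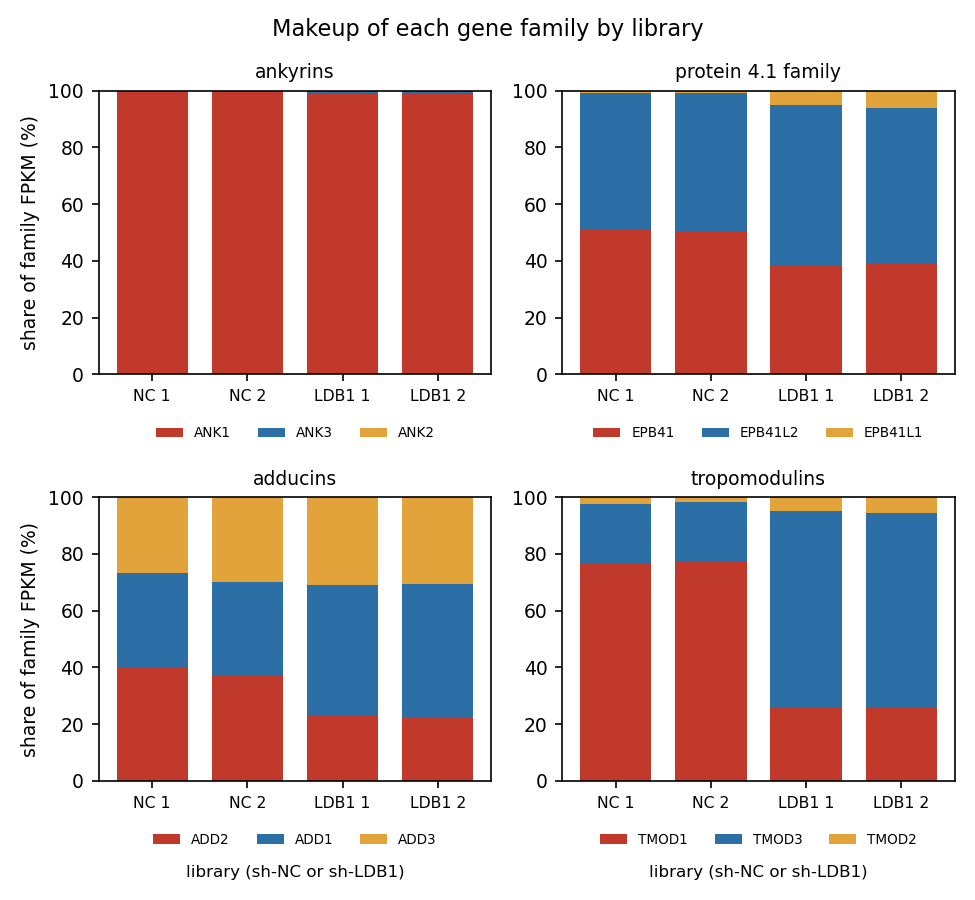
Share of each gene in the summed FPKM of its family (percent) in each of the 4 libraries, stacked to 100. TMOD1, at the bottom of its panel, shrinks from 77.2% with sh-NC to 25.8% with sh-LDB1, and ADD2 from 38.6% to 22.8%, while ANK1 keeps over 99%.

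The other genes of the skeleton and its membrane anchors were counted as lists, with ADD1 and ADD3 in both, against the background of 10.3% called lower and 9.5% called higher. Of 10 paralogs analysed here, 4 were tested, and 0 were called in either direction. By adjusted p alone (limma, Benjamini-Hochberg), 3 of the 4, ADD1, ADD3 and TMOD3, were lower and 0 higher. All 16 binding partners analysed here were tested, 5 were called lower and 0 higher, and their median log2 fold change was -0.52. By adjusted p alone (limma, Benjamini-Hochberg), 10 partners were lower and 1, TPM3, was higher, at 0.29. The background for adjusted p alone was 37.4% lower and 29.9% higher.

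The partners bound to the membrane ranged widely. SLC4A1, which encodes band 3, was at 26.5 and 24.4 FPKM with sh-NC, against 0.487 and 0.502 FPKM with sh-LDB1, a log2 fold change of -4.15. RHAG, the Rh-associated glycoprotein, was at 237.3 and 254.8 FPKM against 24.7 and 23.3 FPKM, a log2 fold change of -3.31. GYPC, glycophorin C, which binds protein 4.1 at the membrane, was at 82.7 and 84.1 FPKM against 16.2 and 16.1 FPKM, a log2 fold change of -2.30. MPP1, the scaffold that joins glycophorin C and protein 4.1, was at 131.5 and 126.8 FPKM against 38.4 and 39.0 FPKM, a log2 fold change of -1.71. In these 4 genes, picked for the size of their called change, both sh-LDB1 libraries were under both controls. The groups did not overlap for 84.6% of all tested genes either. Other membrane proteins were not called, among them SLC2A1, the glucose transporter, at -0.76, CD47, a surface protein of the Rh complex, at -0.47, and STOM, which encodes stomatin, at -0.08. SLC2A1 and CD47 were lower by adjusted p (0.000248 and 0.00372, limma, Benjamini-Hochberg) but missed the fold threshold. STOM passed neither, with an adjusted p of 0.196 (limma, Benjamini-Hochberg).

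The actin filament partners did not move as 1 group. ACTB and ACTG1, the cytoplasmic actins, had log2 fold changes of 0.11 and 0.14. CAPZA1 and CAPZB, subunits of the actin capping protein, were at 0.00 and 0.07, whereas CAPZA2 of the same complex was called lower at -1.11. ACTB, ACTG1, CAPZA1 and CAPZB did not pass the adjusted p threshold (limma, Benjamini-Hochberg), which does not show that they were equal. The tropomyosin genes TPM1 (-0.43) and TPM3 (0.29) passed it in opposite directions, but not the fold threshold.

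To find genes with a like pattern, the level in the 4 libraries, centred on each gene's mean, was compared with the median profile of the 5 tested erythroid isoform genes. That median coincided with the profile of DMTN. Of the 4825 candidates, which averaged 10 FPKM or more, the smallest root mean square distances were those of DHRS11 (0.0324), C20orf27 (0.0445), SLC43A3 (0.0539), CDC42EP1 (0.0549) and WNK4 (0.0619), on the log2 scale. Their log2 fold changes ranged from -2.46 to -2.35, so likeness over 4 libraries of 2 groups mostly restates the size of the fall.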

How the data were processed

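RNA-seq was measured in 4 libraries, 2 sh-NC and 2 sh-LDB1, grouped and numbered from their titles. The authors mapped filtered reads with HISAT (HISAT2 2.0.5 and hg38 per the submitters' processing notes) and deposited FPKM per gene and library, without pooling replicates. Annotation, counting tool and strand setting are not given in the sources used here. The authors called changed genes with DESeq2, which was not run here. The table held 0 columns of other samples.

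Levels were tested as log2(FPKM + 1) with limma 3.58.1 in R 4.3.3 (eBayes with trend, group only) on the 13300 genes averaging 1 FPKM or more. P-values were adjusted by Benjamini-Hochberg, and a call needed an adjusted p below 0.05 and a fold above 2 or below 0.5. The fit was tested on simulated data. An exact permutation test of 2 against 2 libraries cannot go below p = 0.333, so none was used. Nothing states that replicates were separate cultures, so p-values measure the spread between these libraries, which may be technical. Replicates correlated at 0.985 in sh-NC and 0.984 in sh-LDB1 across genes, and they differed by more than sampling noise.

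Reads were recovered from the FPKM by a search over lengths around that of GENCODE release 44, which also gave positions and exons. For each gene, the nearest length that gave whole reads in every library, within 0.02 of a read, was kept. Such a length was found for 98.5% of 28193 genes. It lay within 10% of the annotated length for 88.8% of the genes recovered. Since the search was free to move the length, the 98.5% does not check the annotation. The recovered counts rest on the lengths found, and intervals from them cover counting error only. Shares and ratios were computed in Python 3.11.15 with pandas 2.3.3. Named were the 9 members, LDB1, genes of 4 families and 4 partners with the largest called change at a mean of at least 10 FPKM. The 5 genes of nearest profile followed the same minimum. The remaining partners, the granulocytic markers, the overlapping genes and HEMGN were named after their values were seen. The members and lists were chosen with earlier results of these data known. Alternatives covered the pseudocount, the filter, the scaling, the block, the test, the thresholds and each library left out. Some genes of the fixed lists, and the family sums that need them, are not reported here.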

Additional observations from a re-analysis of the deposited data

How the results depend on the processing

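The 6 member calls were the same genes in each alternative, with 2 exceptions. SPTB was not tested when every library needed at least 1 FPKM, and EPB41 joined with no fold threshold. Across the alternatives the log2 fold change of SPTB ranged from -4.78 to -3.39, of TMOD1 from -4.12 to -3.30, of DMTN from -2.52 to -2.18 and of SPTAN1 from 1.90 to 2.18. The median over the erythroid isoform genes, -2.34 as reported, was -2.50 with a pseudocount of 0.1 and -2.51 with 0.01. It was -2.01 with no filter, where EPB42 entered, and -2.01 with at least 1 FPKM in every library, where SPTB left. With voom on recovered reads it was -2.52. With the same summed FPKM in each library it was -2.18, and the widely expressed median and SPTBN1 turned to 0.028. With a median of ratios these medians were -2.24 and -0.038. The median of all genes, -0.08 as reported, was 0.061 and 0.0045 with these scalings. They gave 1001 lower and 1602 higher genes, and 1145 and 1465, against 1371 and 1264 as reported. With no fold threshold 4978 genes were lower and 3983 higher, and with treat against 2-fold 581 and 568. Leaving out each library in turn gave erythroid medians from -2.43 to -2.24 and widely expressed medians from -0.16 to -0.10. With voom SPTBN1 passed the adjusted p (-0.14), and with treat EPB41 (-0.62) did not. The cause of these shifts was not tested beyond the genes named as entering or leaving. Deviations of same-numbered libraries correlated at 0.0196, so no shared deviation by replicate number was seen. This cannot tell whether same-numbered libraries were prepared together, since nothing states how the replicates were made. With the replicate block, 1386 genes were lower and 1274 higher, and 5 and 1 members were called.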

Other observations

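The genes around the members were counted in a window of 500000 bases on either side, chosen after the data were seen. Of 124 tested neighbours, 18 were called lower (14.5%) and 11 higher (8.87%), against 10.3% and 9.5% of all tested genes. Beside TMOD1, 5 of 15 tested neighbours were called lower. They included HEMGN, a gene of blood cell precursors 325048 bases away, with a log2 fold change of -6.16. Beside EPB41, 5 of 12 were called lower. Beside DMTN, 1 of 13 was called lower and 4 higher, and beside EPB42, 0 of 17 were called in either direction. Beside SPTAN1, 3 of 37 were called lower and 5 higher.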
